A study of Arabidopsis thaliana with 15 samples.

Results

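Cytokinin genes were examined for binding by the MYB transcription factors MYB3R1 and MYB3R4 in inflorescence meristems of Arabidopsis thaliana. The 43 genes were chosen by locus identifier and fall into 7 classes of the cytokinin pathway: 10 type-A and 7 type-B response regulators (ARR), 3 receptors (AHK), 6 phosphotransfer proteins (AHP), 4 isopentenyltransferases (IPT), 6 LOG enzymes and 7 cytokinin oxidases (CKX). They are 43 of 27444 nuclear protein-coding genes, and all were found in the gene table. Binding was measured by ChIP-seq, in which chromatin bound by a protein is pulled down and sequenced, here through a GFP tag, on dissected inflorescence meristems of plants grown with 16 h of light at 21 °C and 8 h of dark at 17 °C. The 8 ChIP libraries comprise 3 of GFP-MYB3R1, 2 of GFP-MYB3R4mNES and 3 of GFP-MYB3R4, and 7 further samples are input chromatin of the same 3 lines. All lines are of the Col0 background, and the labels name the promoter pMYB3R1 for the first and pMYB3R4 for the other two. The labels spell out neither the suffix mNES nor whether the native MYB3R genes are intact, and no ChIP from untagged plants is among the samples. Library kits and sequencing set-ups differed between libraries, without a statement of which library had which. Peak lists hold no expression values, so the labelled tissue was not checked against marker genes.

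Cytokinins are plant hormones that keep cells of the shoot meristem dividing. IPT enzymes make the hormone precursors, LOG enzymes release the active free bases, and CKX enzymes break cytokinins down. At the membrane, AHK receptors pass phosphate through AHP proteins to the response regulators: type-B ARR proteins switch on target genes, and type-A ARR proteins, whose genes are among those targets, dampen the response. MYB3R proteins are MYB transcription factors known for control of genes expressed at G2 and mitosis.

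For each library the authors deposited a list of peaks with the fold enrichment of each summit over input. Which input served which ChIP library is not stated, and the MYB3R4 line has 2 inputs for 3 ChIP libraries. A gene was counted as bound in a library when a summit lay from 1000 bp outside to 200 bp inside either of its ends, and as a target of a group when bound in at least 2 of its libraries. The lists held 7089 to 19655 nuclear peaks for MYB3R1, 227 and 256 for MYB3R4mNES, and 456 to 2717 for MYB3R4. Read depth is unknown, so a gene with no peak is one not called in that library. The list labelled MYB3R4mNES replicate 1 carries peak names of MYB3R4 replicate 3. The lists shared no interval and no set of values, and 200 of the 227 nuclear peaks of MYB3R4mNES replicate 1 (88.1%) overlapped one of MYB3R4 replicate 3. In MYB3R4mNES replicate 2 this share was 86.3%.

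MYB3R1 peaks lay at most cytokinin genes, 34 of 43 in at least 1 library, where 67.3% of all genes had such a peak. The median enrichment of the bound cytokinin genes was near the middle of each list. MYB3R4mNES peaks lay at none, where 0.926% of all genes had one, and MYB3R4 peaks at 7, where 9.64% of all genes had one. The MYB3R1 libraries bound 24, 32 and 14 of the 43 genes in replicates 1, 2 and 3. The MYB3R4mNES libraries bound 0 and 0, and the MYB3R4 libraries bound 0, 7 and 1. The same lists bound 43.6%, 65.9% and 29.5% of all genes in MYB3R1, 0.612% and 0.747% in MYB3R4mNES, and 1.29%, 9.12% and 1.30% in MYB3R4. The mean share of the cytokinin genes was 54.3% ± 21.0 over 3 MYB3R1 libraries and 6.20% ± 8.80 over 3 MYB3R4 libraries (SD), which is 48.1 percentage points higher in MYB3R1. For all genes it was 46.3% ± 18.3 in MYB3R1 and 3.90% ± 4.52 in MYB3R4 (SD), or 42.4 points higher. Every MYB3R1 library thus lay above every MYB3R4 library, both for the cytokinin genes and for all genes, and among the MYB3R1 and among the MYB3R4 libraries the longest list bound the most cytokinin genes. With the 227 strongest peaks of each list the difference was 0 points, and with 2717 peaks, which only MYB3R4 replicate 2 reached in that group, MYB3R1 minus MYB3R4 was -7.75 points.

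**Figure D1:**
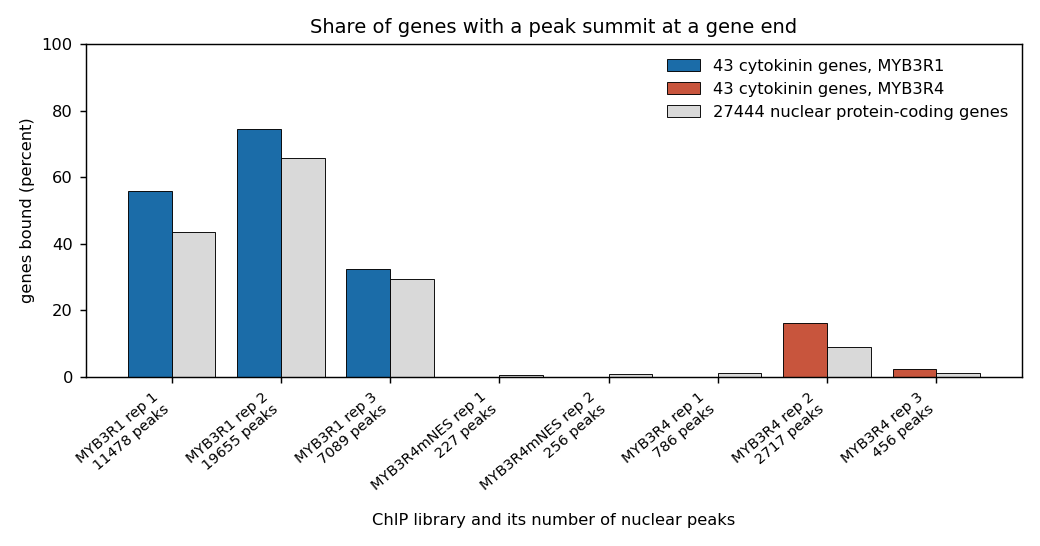
Percent of the 43 cytokinin genes (coloured bars) and of all 27444 nuclear protein-coding genes (grey bars) with a summit at a gene end, for each ChIP library with its number of nuclear peaks. Cytokinin genes reached 74.4% in MYB3R1 replicate 2 against 65.9% of all genes, and 0% in both MYB3R4mNES libraries and in MYB3R4 replicate 1.

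MYB3R1 had 23 targets among the cytokinin genes, or 53.5%, where 44.8% of all genes were targets. Without MYB3R1 replicate 1 the targets numbered 13, and without replicate 2 they numbered 14, with 28.9% and 27.2% of all genes. Given only to the gene with the nearest end, the summits left 15 targets, with 29.9% of all genes. MYB3R4 had 1 target, ARR18, where 1.40% of all genes were targets, and MYB3R4mNES had none, where 0.434% were. Without MYB3R4mNES replicate 1, the remaining library still had 0 genes. The MYB3R4mNES mean was 6.20 points below that of MYB3R4 for cytokinin genes and 3.22 points below for all genes, less than the SD between MYB3R4 libraries in both cases. All 3 MYB3R1 libraries bound 13 of the genes, with 26.9% of all genes. Of these, 10 were bound in no MYB3R4 library, with 21.2% of all genes. Exactly 1 MYB3R1 library bound 11 genes, with 22.5% of all genes, and 9 genes were bound in none of the 8 libraries, with 32.1% of all genes.

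No gene passed a test of its own. Fisher's exact test on the libraries bound, two-sided, gives p = 0.10 at best for 3 libraries against 3, and 5815 genes reached it, 10 of them cytokinin genes. After Benjamini-Hochberg adjustment over 27444 genes their p was 0.472, so 0 genes were called (0.00%), and 0 had an unadjusted p under 0.05. For MYB3R4mNES against MYB3R4 the smallest possible p was also 0.10, reached by 39 genes and by 0 cytokinin genes, with 0 calls (0.00%) and 0 genes at an unadjusted p under 0.05. Both comparisons use the same MYB3R4 libraries. Peaks in the lists are named in 2 styles, and what the styles mark is not stated. The first style had 24 and 32 genes bound in MYB3R1 and 0 and 7 in MYB3R4. The second style had 14 in MYB3R1 replicate 3, 0 and 0 in MYB3R4mNES, and 1 in MYB3R4 replicate 3.

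**Figure D2:**
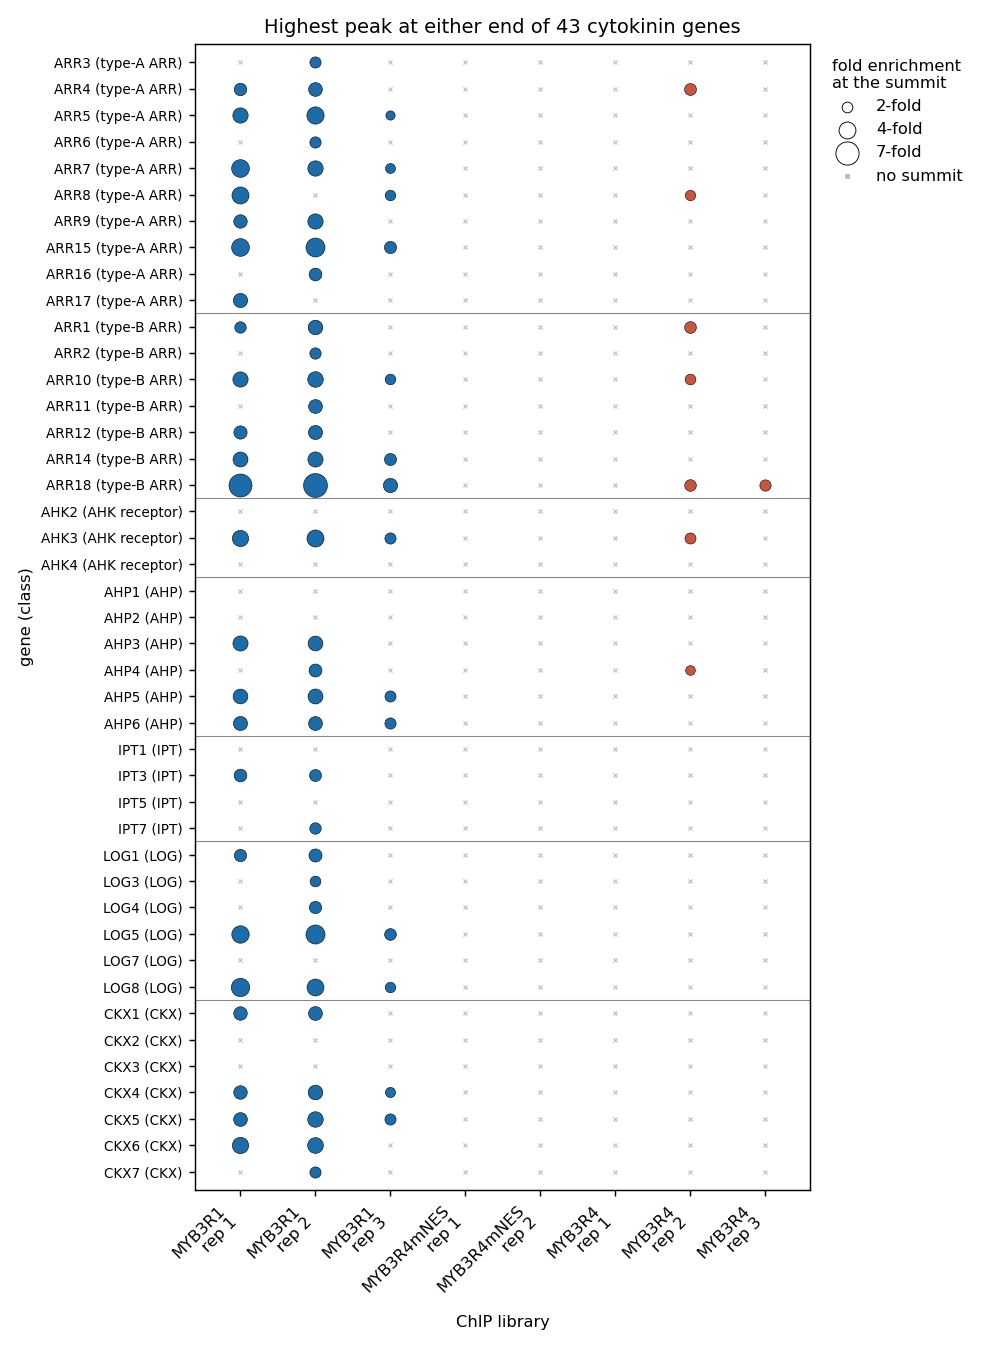
The highest peak at either end of each cytokinin gene (rows, by class) in each ChIP library (columns). Circle area grows with the fold enrichment at the summit as deposited, and a cross marks no summit. The largest circles are at ARR18, with 6.90 and 7.40 in MYB3R1 replicates 1 and 2, and the MYB3R4mNES columns are empty.

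The receptor class was bound at 1 of 3 genes, a MYB3R1 target, as were 44.8% of all genes. At AHK3 (AT1G27320), a cytokinin receptor known also for delaying leaf senescence, the fold enrichment at the summit was 3.79, 4.09 and 2.13 in MYB3R1 replicates 1, 2 and 3. It had no peak in MYB3R4mNES, and 2.09 in MYB3R4 replicate 2 alone. Its highest MYB3R1 summits lay 136 to 200 bp outside the gene end with the higher coordinate, 17 to 81 bp from an end of the neighbour AT1G27330. The MYB3R4 summit lay at the other end of AHK3, 207 bp outside, where MYB3R1 replicates 1 and 2 had weaker summits at 2.38 and 2.69. AHK2 (AT5G35750) and AHK4 (AT2G01830, also WOL or CRE1), the other two receptors, were bound in no library.

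Among phosphotransfer proteins 3 of 6 genes were MYB3R1 targets, where 44.8% of all genes were. By nearest gene end 1 remained (29.9% of all genes), as AHP3 and AHP6 were then each bound in 1 library. For AHP6 this was MYB3R1 replicate 2, through a weaker summit of 1.55 at the end opposite its highest peaks. AHP5 (AT1G03430) was enriched 3.24-, 3.29- and 2.10-fold in MYB3R1, listed by replicate, and AHP3 (AT5G39340) 3.36- and 3.23-fold in replicates 1 and 2. Both relay phosphate to the response regulators. AHP6 (AT1G80100), a pseudo-phosphotransfer protein that inhibits the relay and takes part in the spacing of organs at the meristem, had 2.99, 2.92 and 2.13. All 3 genes were without peaks in the MYB3R4mNES and MYB3R4 libraries. AHP4 (AT3G16360) had 2.63 in MYB3R1 replicate 2 and 1.76 in MYB3R4 replicate 2, the lowest MYB3R4 value among the cytokinin genes. Those summits lay 816 and 841 bp outside AHP4 and 105 and 80 bp from an end of AT3G16370, and AHP4 was bound in 0 libraries when each summit went to the nearest gene end. AHP1 (AT3G21510) and AHP2 (AT3G29350) were bound in none.

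Type-B response regulators, the activators of cytokinin target genes, had 5 MYB3R1 targets of 7 (44.8% of all genes), and all 7 were bound in MYB3R1 replicate 2 (65.9% of all genes). Without MYB3R1 replicate 1 or replicate 2 the targets were 3 (28.9% and 27.2% of all genes). ARR18 (AT5G58080) had the highest fold enrichments of the 43 genes in each MYB3R1 library, 6.90, 7.40 and 3.07. In MYB3R4 replicates 2 and 3 it had 2.26 and 2.15, and no peak in replicate 1 or in the MYB3R4mNES libraries. The fold enrichment of its peak ranked 375th of 11478, 267th of 19655 and 956th of 7089 in the MYB3R1 lists. In the MYB3R4 lists it ranked 755th of 2717 and 203rd of 456. The peak of MYB3R1 replicate 1 spanned chr5:23500913-23501838 (TAIR10), with its summit at position 23501419, and the 5 summits of both proteins lay between positions 23501403 and 23501438. They lay 167 to 202 bp outside ARR18 and 0 to 22 bp from an end of TIL (AT5G58070, a temperature-induced lipocalin), so the peak lay in the windows of both genes and nearer to TIL. Given only to the nearest gene end, ARR18 was bound in 1 library, MYB3R1 replicate 2. That was through a weaker summit of 2.10 at its other end.

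ARR10 (AT4G31920), with ARR1 and ARR12 among the main activators of the response, had 3.39, 3.50 and 1.98 in MYB3R1 and, of the MYB3R4 libraries, 2.01 in replicate 2. The highest MYB3R1 summits lay at one end, shared with BAT1 (AT4G31910), and the MYB3R4 summit 196 bp outside the other. ARR1 (AT3G16857) had 2.20 and 3.18 in MYB3R1 replicates 1 and 2 and 2.29 in MYB3R4 replicate 2, with the MYB3R4 summit 52 and 62 bp from the MYB3R1 summits. ARR14 (AT2G01760) had 3.30, 3.37 and 2.37 in MYB3R1, and ARR12 (AT2G25180) had 2.72 and 3.01 in replicates 1 and 2, and neither had a peak in MYB3R4mNES or MYB3R4. The ARR14 summits also lay in the windows of MAP70-3 and AT2G01755, and by nearest gene end ARR14 was bound in 2 libraries. Apart from ARR18, values of this class ran from percentile 7.22 (ARR1, replicate 1) to 72.1 (ARR10, replicate 2) of the MYB3R1 lists. Median fold enrichments over all nuclear peaks of those lists were 3.04, 2.76 and 2.21. ARR2 (AT4G16110) and ARR11 (AT1G67710) were bound in MYB3R1 replicate 2 alone, with 2.17 and 2.92.

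All 10 type-A response regulators, the negative feedback arm of the pathway, had a summit in at least 1 MYB3R1 library (67.3% of all genes), and 6 were targets (44.8% of all genes). Without MYB3R1 replicate 1 the targets were 3 (28.9% of all genes). ARR15 (AT1G74890) had 4.35, 4.91 and 2.41, at summits 348 to 427 bp outside the gene and 11 to 57 bp from an end of NdhO. Weaker summits at the other end of ARR15 had 3.04, 3.39 and 2.25. By nearest gene end ARR15 was still bound in 3 libraries. ARR7 (AT1G19050) had 4.35, 3.43 and 1.82, and ARR5 (AT3G48100) had 3.42, 4.17 and 1.66. ARR5, ARR7 and ARR15 are induced by cytokinin, and are known in the shoot meristem as genes repressed by the stem cell regulator WUSCHEL. The 3 genes were bound in every MYB3R1 library and in no library of MYB3R4mNES or MYB3R4. The summit of ARR5 in replicate 1 lay 411 bp outside the gene and 131 bp from an end of EDS1 (AT3G48090). By nearest gene end ARR5 was bound in 1 library, MYB3R1 replicate 2, through a weaker summit of 1.75 at its other end. The highest peaks of ARR15, ARR7 and ARR5 in replicate 3 stood at percentiles of 64.5, 11.1 and 2.62 of that list. These were below those of the other replicates.

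Another 2 type-A genes had a MYB3R4 peak, in replicate 2. ARR4 (AT1G10470), which also interacts with the photoreceptor phytochrome B, had 2.50 and 2.88 in MYB3R1 replicates 1 and 2 and 2.32 in MYB3R4 replicate 2, the highest MYB3R4 value among the 43 genes. Its MYB3R4 summit lay 198 bp inside the gene and 286 bp from the nearest MYB3R1 summit. ARR8 (AT2G41310, listed as RR3) had 4.09 and 1.97 in MYB3R1 replicates 1 and 3 and 1.93 in MYB3R4 replicate 2. ARR8 and ARR17 (AT3G56380, 3.05 in MYB3R1 replicate 1) were bound in MYB3R1 replicate 1 but not in the longer list of replicate 2, as were 1.13% of all genes. At ARR8 replicate 2 had a 4.01-fold summit 251 bp inside an end, beyond the window. ARR9 (AT3G57040) had 2.78 and 3.41 in MYB3R1 replicates 1 and 2. ARR3, ARR6 and ARR16 were bound in MYB3R1 replicate 2 alone, with 2.13 to 2.58.

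Among cytokinin synthesis and activation genes, MYB3R1 targets were 1 of 4 IPT and 3 of 6 LOG genes (44.8% of all genes). None had a MYB3R4mNES or MYB3R4 peak, where 0.926% and 9.64% of all genes had one. Without MYB3R1 replicate 1 or replicate 2 the IPT targets were 0 (28.9% and 27.2% of all genes). Of the IPT genes, IPT3 (AT3G63110), a nitrate-responsive synthesis gene, was the only target, with 2.56 and 2.35 in MYB3R1 replicates 1 and 2. IPT7 (AT3G23630) had 2.20 in replicate 2, and IPT1 (AT1G68460) and IPT5 (AT5G19040) were bound in none. LOG8 (AT5G11950) had 4.64, 4.04 and 1.95 and LOG5 (AT4G35190) had 4.22, 4.95 and 2.29, both bound in every MYB3R1 library and in no other. LOG1 (AT2G28305) had 2.44 and 2.67 in replicates 1 and 2, and was bound in 0 libraries by nearest gene end. LOG4 (AT3G53450), expressed at the top of the shoot meristem, had 2.45 in MYB3R1 replicate 2, LOG3 (AT2G37210) had 2.03 there, and LOG7 (AT5G06300) was bound in no library.

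Of the 7 CKX genes, 4 were MYB3R1 targets (44.8% of all genes). None had a MYB3R4mNES or MYB3R4 peak, where 0.926% and 9.64% of all genes had one. CKX6 (AT3G63440) had 3.80 and 3.57 in MYB3R1 replicates 1 and 2, with both summits 24 bp outside its end and 4 bp from an end of AT3G63450. CKX5 (AT1G75450) had 2.88, 3.49 and 2.13, and CKX4 (AT4G29740) had 2.81, 3.20 and 1.86. The CKX4 summits lay 265 to 360 bp outside CKX4 and 20 to 75 bp from an end of AT4G29750. By nearest gene end CKX4 was bound in 0 libraries. CKX5 acts together with CKX3 (AT5G56970) to restrict the size of reproductive meristems, and CKX3 was bound in no library. CKX1 (AT2G41510) had 2.81 and 2.92 in replicates 1 and 2, CKX7 (AT5G21482) had 2.13 in replicate 2, and CKX2 (AT2G19500) was not bound. The CKX1 summits also lay in the windows of neighbouring genes, and CKX1 kept 1 library when each summit went to the nearest gene end. By nearest gene end the CKX targets were 1 in place of 4 (29.9% of all genes). Without MYB3R1 replicate 1 or replicate 2 they were 2 (28.9% and 27.2% of all genes).

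**Figure D3:**
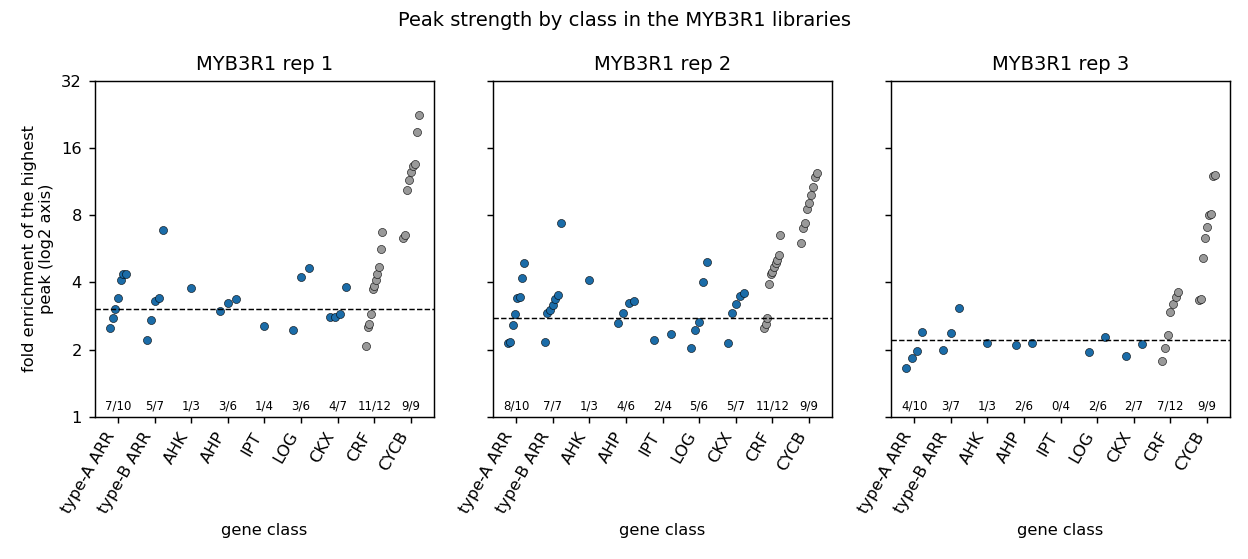
Fold enrichment of the highest peak of each bound gene (points, log2 axis) by class in the MYB3R1 libraries, with the number bound over the number of genes below. Grey points are cytokinin response factor (CRF) and B-type cyclin (CYCB) genes, and the dashed line is the median of all nuclear peaks. Cytokinin genes lie around that line and B-type cyclin genes above it, from 3.35 to 22.5.

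Taken by role, 15 of 26 signalling genes (AHK, AHP and ARR) and 8 of 17 metabolism genes (IPT, LOG and CKX) were MYB3R1 targets, or 57.7% and 47.1%, with 44.8% of all genes. Without MYB3R1 replicate 1 they were 9 and 4 (28.9% of all genes), and without replicate 2 they were 10 and 4 (27.2%). This split was made after the values were seen. All 7 genes with a MYB3R4 peak were signalling genes, and 9.64% of all genes had a MYB3R4 peak in at least 1 library. For 6 of the 7 that peak was in replicate 2 alone, the longest MYB3R4 list, as for 7.92% of all genes.

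Bound cytokinin genes had peaks of middling strength. Among the genes bound in each MYB3R1 library, the median fold enrichment of the highest peak was 3.27, 3.09 and 2.12 for cytokinin genes and 3.19, 3.09 and 2.29 for all bound genes. The strongest 10% of nuclear peaks included the highest peak of 1, 3 and 0 cytokinin genes in replicates 1, 2 and 3, or 4.17%, 9.38% and 0% of those bound, with 12.8%, 14.4% and 12.6% of all bound genes. Among MYB3R4 replicate 2 peaks the medians were 2.09 and 2.07. The 9 B-type cyclin genes, which are expressed at mitosis, were all bound in the 3 MYB3R1 libraries, with medians of 12.5, 9.08 and 7.08. Of these 9, 3 were bound in each MYB3R4mNES library, and 3, 5 and 3 in the MYB3R4 libraries.

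Positions of summits within the windows were compared between the MYB3R1 libraries for the 23 targets, and were not counted over all genes. All 23 targets had their highest summit at the same gene end in each library that bound them. The summits spanned at most 100 bp between libraries for 19 of the 23, with a median of 79.0 bp, and the longest span was 244 bp, at ARR7. Of the 7 genes bound in MYB3R4 replicate 2, 5 had a MYB3R1 summit of at least 1 list within 200 bp of the MYB3R4 summit: ARR18 in 3 lists, ARR1 and AHK3 in 2, and ARR8 and AHP4 in 1. ARR4 and ARR10 had none, with nearest MYB3R1 summits at 286 and 230 bp. Of all 2503 genes bound in that library, 76.5% had a MYB3R1 summit within 200 bp in at least 1 list. Of the 34 cytokinin genes bound in any library, 17 had a highest peak, in at least 1 library, that also lay in the window of another gene, as did 68.3% of the 18623 genes bound in any library.

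**Figure D4:**
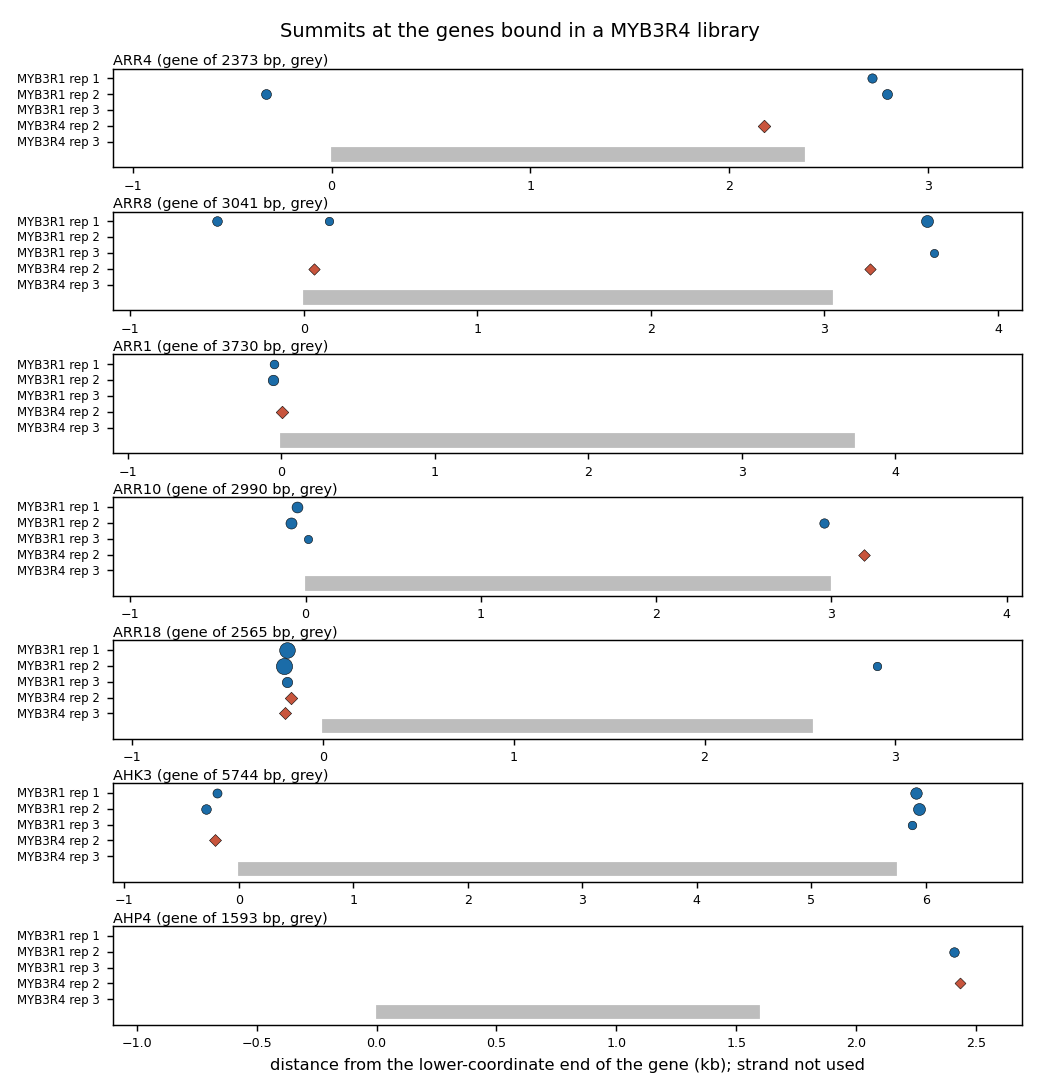
Summits in the windows of the 7 cytokinin genes with a MYB3R4 peak, in kb from the gene end with the lower coordinate (strand not used). Blue circles are MYB3R1 and red diamonds MYB3R4 libraries, marker area grows with fold enrichment, and the grey bar is the gene. At ARR18 the summits of 5 libraries line up between 167 and 202 bp outside the gene, and at ARR10 the MYB3R4 summit is at the other end from the highest MYB3R1 summits.

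Lists of equal length were compared next, since the lists differ in length. With the 227 strongest peaks of each library, by -log10 p, no cytokinin gene was bound in any library. All genes were then bound at 1.16%, 1.18% and 1.19% in MYB3R1, 0.612% and 0.663% in MYB3R4mNES, and 0.721%, 0.882% and 0.711% in MYB3R4. With 456 peaks, ARR18 was the one gene bound, in MYB3R1 replicates 1 and 2 and in MYB3R4 replicate 3. Of all genes, 2.28%, 2.34% and 2.38% were bound in MYB3R1 and 1.11%, 1.68% and 1.30% in MYB3R4. With 1000 peaks, each MYB3R1 library bound ARR18 alone, with 4.87%, 5.01% and 5.08% of all genes, and MYB3R4 replicate 2 bound ARR1, ARR4 and ARR18, with 3.58% of all genes. With 2717 peaks, the MYB3R1 libraries bound 6, 3 and 2 cytokinin genes and MYB3R4 replicate 2 bound 7. All genes were then bound at 12.5%, 12.9% and 13.0% in MYB3R1 and 9.12% in MYB3R4 replicate 2. With 5000 peaks, the MYB3R1 libraries bound 13, 8 and 8, with 21.9%, 22.6% and 22.2% of all genes. With 7089 peaks, they bound 17, 14 and 14, with 29.8%, 30.9% and 29.5% of all genes. Only 1 MYB3R4 library reached 2717 peaks, so that value has no replicate.

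**Figure D5:**
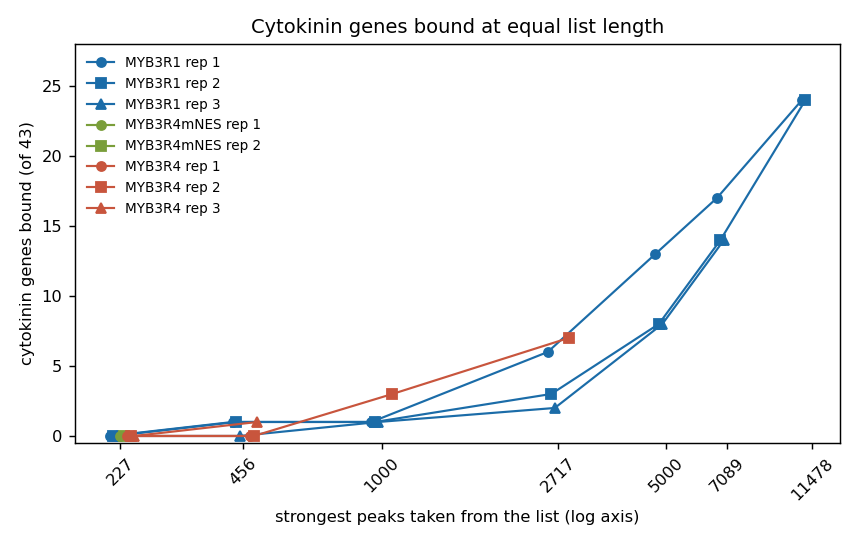
Number of the 43 cytokinin genes bound when the same number of strongest peaks (log axis) is taken from each list, for each ChIP library. Points of different libraries are set slightly apart sideways. With 2717 peaks MYB3R4 replicate 2 reaches 7 genes and the MYB3R1 libraries 6, 3 and 2.

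Some cytokinin genes held summits inside the gene, beyond the windows at the ends. Such summits occurred at 11, 12 and 6 of the 43 genes in the MYB3R1 libraries, or 25.6%, 27.9% and 14.0%, where 5.42%, 8.34% and 4.62% of all genes had them. In the MYB3R4mNES libraries 0 and 0 genes had them (0.113% and 0.128% of all genes). In the MYB3R4 libraries 0, 1 and 0 genes had them (0.343%, 0.918% and 0.299% of all genes). Per 100 kb of gene body, cytokinin genes had 12.0, 13.0 and 6.98 summits in the MYB3R1 lists and all genes 2.90, 4.55 and 2.45. The cytokinin genes were somewhat longer, with a median of 2524 bp against 2078 bp for all genes.

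Inner summits lay both at genes with no peak at their ends and at genes bound there. IPT5, a synthesis gene with no peak at its ends, had inner summits of 3.11, 3.72 and 2.05 in the 3 MYB3R1 libraries, 212 to 360 bp inside an end. CKX7, the cytosolic CKX enzyme, had 3.35, 4.41 and 2.47, deeper inside the gene, at 1281 to 1709 bp from an end. AHP4 had 3.48, 3.66 and 2.04, at 225 to 365 bp inside an end. Both CKX7 and AHP4 also had a weaker peak at an end in MYB3R1 replicate 2. CKX5, bound at an end in the 3 MYB3R1 libraries, had inner summits of 3.05, 3.22 and 2.19. LOG7 had 2.93 and 2.54 and IPT1 had 2.44 and 2.17, in MYB3R1 replicates 1 and 2. AHK4, the receptor needed for vascular development of the root, had 3.45 in MYB3R1 replicate 2 and 2.24 in MYB3R4 replicate 2, 764 and 859 bp inside an end. Inner summits occurred in at least 1 library at 4 of the 9 genes that had none at their ends, and AHK2, AHP1, AHP2, CKX2 and CKX3 had neither. The matching share over all genes with no summit at their ends was not counted.

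Of 28 further cytokinin genes, among them the other IPT, LOG and type-B ARR genes and those for transport, glucosylation and ARR turnover, 10 were MYB3R1 targets (35.7%, with 44.8% of all genes), and 0 were targets of MYB3R4mNES or MYB3R4. Without MYB3R1 replicate 1 or replicate 2 the MYB3R1 targets among the 28 were 3 (28.9% and 27.2% of all genes). Single MYB3R4 peaks, all in replicate 2, were at IPT9, KMD1 and KMD4. KMD4 (AT3G59940), an F-box protein that marks type-B ARR proteins for breakdown, had 4.76, 5.28 and 2.15 in MYB3R1 and 2.30 in MYB3R4 replicate 2. KMD1 (AT1G80440), of the same family, had 5.37 and 6.13 in MYB3R1 replicates 1 and 2 and 1.64 in MYB3R4 replicate 2. IPT9 (AT5G20040), which modifies tRNA, had 2.63 and 2.97 in MYB3R1 and 2.12 in MYB3R4. Of the 12 cytokinin response factor genes, transcription factors induced by cytokinin, 11 were MYB3R1 targets (91.7%). MYB3R4mNES replicate 2 bound 1 of the 12, and the MYB3R4 libraries bound 0, 5 and 0.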

How the data were processed

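The 43 genes, their classes and the other lists were chosen with earlier results of these data known. Per the submitters' processing notes, FastQC, Trimmomatic, Bowtie2 and Picard were used with the build TAIR10; no peak caller is named in the sources used here. The authors' deposited lists, 1 for each ChIP library, were made against input, with a read extension of 400 bp, according to their names. They hold a score of 10 times the -log10 q-value, a fold enrichment of the summit over input (a ratio), and the -log10 p and -log10 q of each peak, all as deposited. Fold enrichments are the authors' own values; they describe and rank peaks within a list and were not tested between lists. Organelle peaks were left out.

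Gene ends came from a RefSeq table of assembly TAIR10.1 without strand, so both ends counted. The coordinates matched the lists: 21.5% to 54.1% of summits fell in the 500 bp next to a gene, and 10.6% to 25.5% after genes were shifted along the chromosome. Counts were set beside those of all genes, with no test over the list. The single-gene test was Fisher's exact test (scipy 1.17.1) with Benjamini-Hochberg adjustment and a threshold of 0.05. It was not run on simulated data. The binding calls were checked on made-up summits at set distances from gene ends. No label says whether replicates are separate plants, and p-values then measure only the spread between samples, which may be technical.

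Values in every library are given for genes with a MYB3R4 or MYB3R4mNES peak and for the up to 3 genes of each class with the highest median percentile in MYB3R1 lists; CKX1 and CKX4 tied. The remaining genes are given by counts and single values. Alternatives were -log10 q of at least 5 or 10, equal list lengths, windows of 500 and 2000 bp, any peak overlap, nearest gene end, each library left out, each naming style and the replicate number as a block.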

Additional observations from a re-analysis of the deposited data

How the results depend on the processing

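Counts of bound cytokinin genes were lower in the settings that keep fewer peaks. With the 227 strongest peaks of each list every count of cytokinin genes was 0, MYB3R1 minus MYB3R4 was 0 percentage points, and the other cytokinin genes had 0 targets. MYB3R1 targets among the 43 genes were 23 with all peaks (44.8% of all genes). At a -log10 q of at least 10 they were 12 (25.1% of all genes), 9 signalling and 3 metabolism genes. Bound in every library were 13 (26.9% of all genes), 9 and 4 by role. By nearest gene end they were 15 (29.9% of all genes), 11 and 4 by role. Other cytokinin targets in these settings, in the same order, were 3, 3 and 6. With 7089 peaks from each MYB3R1 list, an alternative chosen after seeing the data, the 43 genes had 16 targets. These were 12 signalling and 4 metabolism genes, and other cytokinin genes had 3. Of all genes, 29.8% were then targets. Counted in at least 1 library, targets were 34 for MYB3R1 (15 other cytokinin genes) and 7 for MYB3R4, with 67.3% and 9.64% of all genes. With any part of a peak in the window, MYB3R1 targets were 32 (50.5% of all genes), 20 signalling and 12 metabolism genes. Other cytokinin targets were then 12. Windows of 500 and 2000 bp gave 20 and 25 MYB3R1 targets, with 37.5% and 54.4% of all genes. The MYB3R4 target was lost (0) at -log10 q of at least 5 or 10, by nearest end, in every library and in the first naming style. Cytokinin genes bound in all MYB3R1 and no MYB3R4 libraries were 10 with all peaks (21.2% of all genes). They were 6 at a -log10 q of at least 5, 1 at 10, 6 by nearest end, and 17 in the first naming style. The share of all genes was not counted for these 4 values.

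With a library left out, MYB3R1 had 13 to 23 targets (9 to 15 signalling, 4 to 8 metabolism), with 27.2% to 44.8% of all genes. MYB3R4 had 0 to 1 and MYB3R4mNES 0. Cytokinin genes bound in all MYB3R1 and no MYB3R4 libraries were 10 to 17, with 17 reached without MYB3R1 replicate 3, the shortest MYB3R1 list. The share of all genes was not counted for that range, so it cannot be set against the background. Other cytokinin targets of MYB3R1 were 3 to 10. MYB3R1 minus MYB3R4 was 38.0 to 58.9 percentage points and MYB3R4mNES minus MYB3R4 was -9.30 to -1.16. With equal numbers of strongest peaks from each list that has as many, lengths chosen after seeing the data, MYB3R1 minus MYB3R4 was 0.775 points with 456 peaks and was reversed, at -4.65 and -7.75 points, with 1000 and 2717 peaks, where MYB3R4 is replicate 2 alone. No direction was reversed in the other settings, though both differences were 0 in one or more. The cause of these changes was not tested, except that stricter settings leave fewer peaks by construction.

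With the replicate number as a block (exact sign-flip test within pairs), 0 genes were called for either comparison, as without it; the smallest p was then 0.25 and 0.50. Across genes, deviations of libraries of the same number had correlations of -0.0992, -0.165 and -0.0514 for MYB3R1 with MYB3R4. No MYB3R1 library correlated best with the MYB3R4 library of its own number, and MYB3R4mNES libraries were not crossed in this way. Such a correlation leaves out the mean level of each library, so it cannot show a shared shift in list length. Replicate 2 had the longest list in both groups (19655 nuclear peaks in MYB3R1, 2717 in MYB3R4) and replicate 3 the shortest (7089 and 456). Use of the 5′ end alone and counts of the AACGG motif were not run, because the reference table used here gives neither strand nor sequence. Targets could not be counted for a group left with 1 library.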

Other observations

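Of the 5 cytokinin genes with no summit at an end or inside, AHK2 lay farthest from MYB3R1 peaks: the nearest summit outside the gene was at 42996, 8849 and 209876 bp in MYB3R1 replicates 1, 2 and 3. AHP2 had MYB3R1 summits at 3789, 3773 and 3739 bp, similar in the 3 libraries and beyond the window of 1000 bp. CKX3 had its nearest summit at 1191 bp in MYB3R1 replicate 2, and at 6369 and 12331 bp in replicates 1 and 3.

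CRF2 (AT4G23750), a cytokinin response factor, was enriched 6.72-, 6.53- and 2.96-fold in MYB3R1 replicates 1, 2 and 3, 2.69-fold in MYB3R4mNES replicate 2 and 2.55-fold in MYB3R4 replicate 2. It was the only gene of the cytokinin and response factor lists with a MYB3R4mNES peak at a gene end.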
